A study of Mus musculus with 18 samples.

Results

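RNA levels of 10 antioxidant genes were followed across mouse skeletal muscle from 6 groups of animals. The genes were Nfe2l2, which encodes the transcription factor NRF2, and Nqo1, Hmox1, Gclc, Gclm, Txnrd1, Srxn1, Cat, Sod2 and Gpx1. They were taken by name from a table of 12558 genes, and all 10 were present and passed the filter on low levels. The series concerns activation of the nuclear receptor NURR1 in muscle. Every group held 3 libraries, numbered as biological replicates in the labels. All animals spent 10 weeks on their diet. Wild-type mice ate normal chow (WT-NC) or a high-fat diet (WT-HFD), and on both diets further groups drank water with AQ (WT-NC-AQ and WT-HFD-AQ), an agent whose abbreviation the labels leave unexplained. The other groups, both on the high-fat diet, were mice carrying a Nurr1 transgene (HFD-Nurr1-mTg) and wild-type mice labelled separately as their controls (HFD-WT). The promoter that drives the transgene, the number of founder lines, the muscle sampled, and the animals' age, sex and litters were not found in the labels, and there was no transgenic group on chow and none given AQ.

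NRF2 is held at low levels in resting cells by KEAP1, an adaptor that directs it to degradation, and oxidants or electrophiles that modify KEAP1 let NRF2 enter the nucleus. There it pairs with small MAF proteins on antioxidant response elements and raises genes for haem breakdown (Hmox1), quinone reduction (Nqo1), glutathione synthesis (Gclc and Gclm) and the repair of thioredoxin and peroxiredoxin (Txnrd1 and Srxn1). Cat, Sod2 and Gpx1 remove hydrogen peroxide or superoxide and answer to several regulators besides NRF2. In muscle, Sod2 acts in mitochondria and Cat mainly in peroxisomes, so both are tied to fuel oxidation as well as to defence.

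The deposited CPM values (CPM, reads scaled to library size and then between libraries) gave back whole reads, 10404895 to 16082994 per library, and 3 reads corresponded to 0.191 to 0.277 CPM. Members were covered by 75 to 6383 reads in any library, with Hmox1 the thinnest and Sod2 the deepest. All 10 muscle fibre markers were abundant, from Myh7 at 157 to 404 CPM to Myh4 at 37720 to 59040 CPM. Nr4a2, the gene of NURR1, lay at 18.8 to 30.1 CPM in the 3 transgenic libraries and at 0.828 to 4.79 CPM in the other 15. The second WT-HFD library stood apart. The summed level of 9 immediate early and heat shock genes, a list put together after this library had been seen, was 674 CPM there and 127 to 223 CPM in the other libraries. Of the 9 genes, 5 had their highest value in this library. The rest peaked elsewhere, among them Egr1 and Fosb in the first HFD-WT library. The same library held the highest value of 3 members, Nfe2l2, Hmox1 and Srxn1.

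The antioxidant response element has the core TGACNNNGC. Its presence near the gene starts is shown first because NRF2 acts on its target genes through this element. RefSeq promoter windows (GRCm38.p6, from 250 bases before to 50 bases after a start) were at hand for 8 of the 10 members, all but Hmox1 and Gclc. The 9-letter core, searched on both strands, occurred in a window of 4 members. Among all 32851 windows 12.4% held it, and 17.2% of the 9464 genes of the table with a window did so. The matches are drawn in capitals below, each read 5′ to 3′ along the gene's strand, so that a match on the opposite strand appears as its reverse complement.
Nfe2l2: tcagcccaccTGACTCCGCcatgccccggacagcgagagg
Gclm: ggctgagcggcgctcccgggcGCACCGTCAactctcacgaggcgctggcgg
Txnrd1: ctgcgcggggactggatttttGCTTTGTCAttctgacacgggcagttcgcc
Srxn1: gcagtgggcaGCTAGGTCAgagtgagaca
The Nfe2l2 stretch lies at chr2:75704874-75704913 on the minus strand, and its match begins 240 bases before the start, on the gene's own strand. In Gclm (chr3:122245402-122245452, plus strand) the match begins 134 bases before the start, on the opposite strand. Txnrd1 has 3 annotated starts, and the window of 1 of them (stretch at chr10:82859093-82859143, plus strand) holds a match on the opposite strand that begins 92 bases before the start. The Srxn1 match (chr2:152105542-152105570, plus strand) begins 28 bases after the start, on the opposite strand. No match was found in the windows of Nqo1, Cat, Sod2 and Gpx1, which says only that these letters are not in those 300 bases. Whether NRF2 occupies any of these places was not measured.

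Levels of the 10 genes spanned a wide range, and most of them varied little. Per kilobase of annotated exon, the median level over the 18 libraries ran from 2.79 CPM for Gclm to 66.1 CPM for Cat. Within a gene, the highest library exceeded the lowest by 1.42 times for Txnrd1 and for Gpx1, by 2.19 times for Hmox1, 2.41 times for Cat and 2.42 times for Nqo1, and by 4.3 times for Srxn1. The share of a gene's log2 variance that lay between groups, and not within them, was lowest for Nqo1 (19.2%) and Txnrd1 (25.3%). It was highest for Hmox1 (70.3%) and Gpx1 (75.1%). With 6 groups of 3 libraries, sampling alone puts some variance between groups, so the share is above 0 even where groups do not differ. When the 6 groups were ordered by mean for each gene, neighbouring groups overlapped at 47 of the 50 steps. The 3 steps without overlap were Hmox1 between WT-NC and WT-HFD-AQ, Gclc between HFD-WT and HFD-Nurr1-mTg, and Gpx1 between WT-NC-AQ and HFD-WT.

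**Figure D1:**
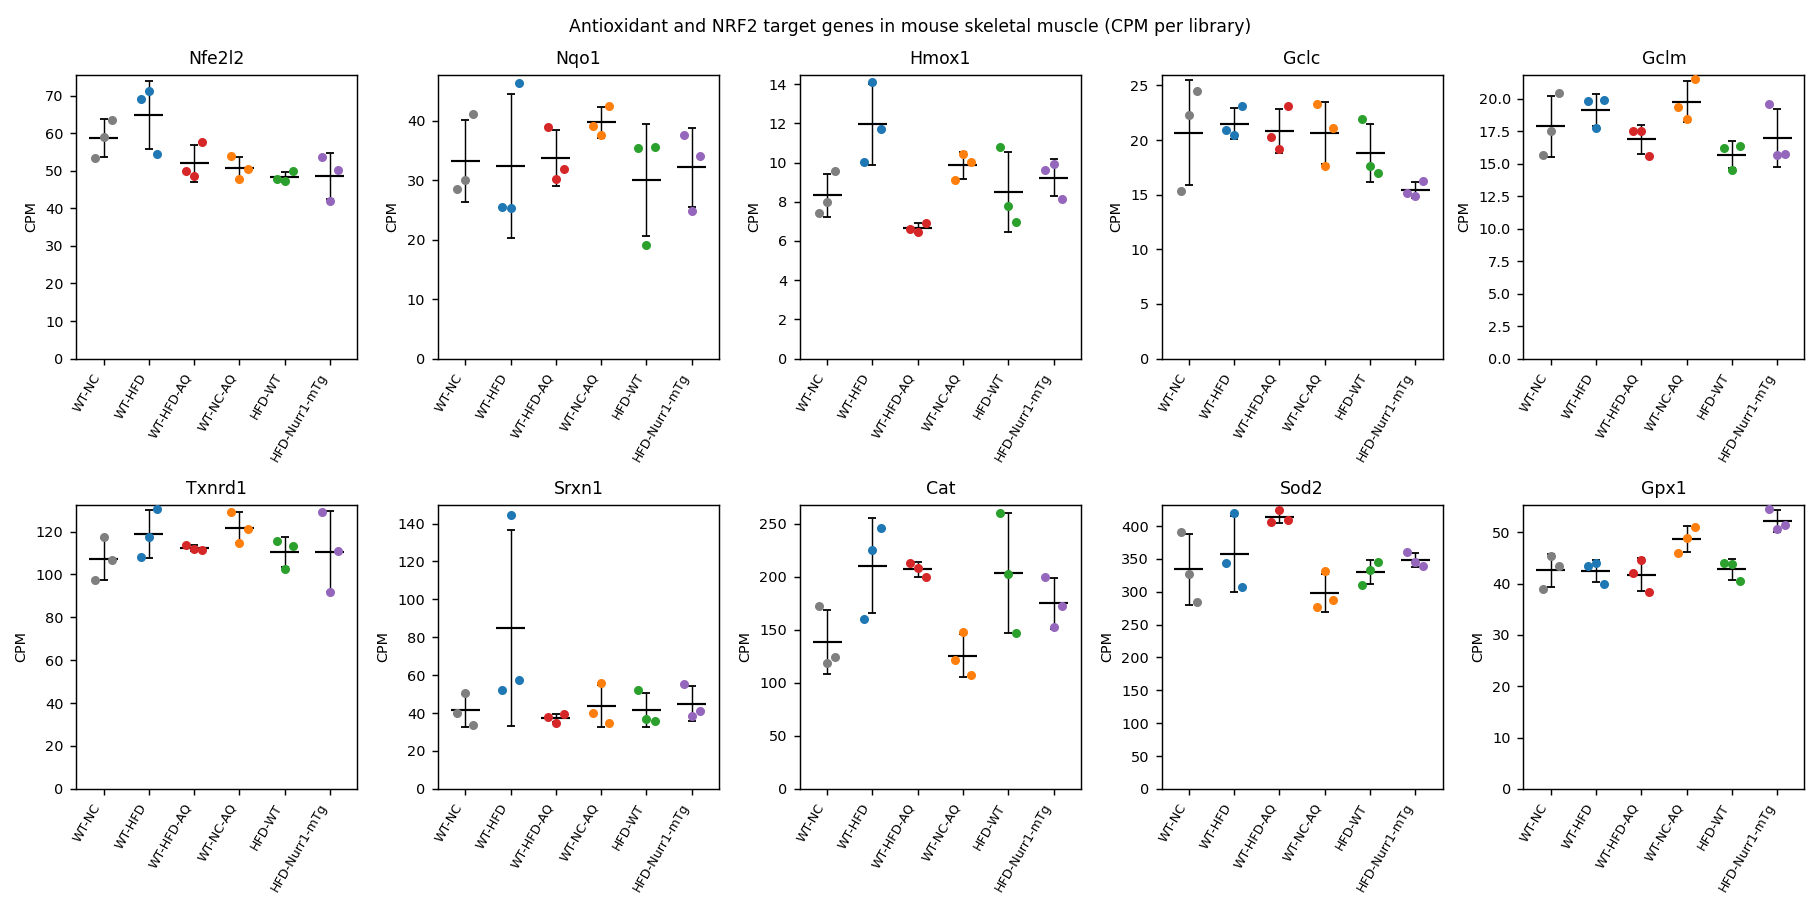
CPM of the 10 genes in each of the 18 libraries (points), by group, with the mean (bar) and SD of 3 libraries (whiskers); axes start at 0. The WT-HFD-AQ libraries hold the 3 lowest Hmox1 values (6.44 to 6.93 CPM), and 1 WT-HFD library holds the outlying Srxn1 value of 144 CPM.

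Of the 10 genes, 4 changed past the threshold in at least 1 of 7 comparisons: Hmox1, Cat, Sod2 and Nfe2l2. A gene is called here when its limma p-value, adjusted over all 12524 genes tested, is under 0.05. With AQ in the water, 3 of the 10 differed between diets, where 10.6% of all genes were called. Cat and Sod2 were higher on the high-fat diet, as were 4.89% of all genes, and Hmox1 was lower, as were 5.68%. The effect of AQ differed between diets for 1 member, Hmox1, against 0.711% of all genes (0.583% in its direction). Between the 2 untreated wild-type groups on the high-fat diet, Nfe2l2 alone of the 10 differed, against 4.46% of all genes (1.68% in its direction). The comparisons share libraries: WT-HFD serves in the diet comparison without AQ, in the AQ comparison on the high-fat diet and against HFD-WT, and the test of AQ by diet is built from the same 12 libraries as the diet and AQ comparisons.

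No member was called in the other 4 comparisons. For diet without AQ limma called 0.0479% of all genes, and 3 members had an unadjusted p under 0.05 (9.53% of all genes did). Neither edgeR nor DESeq2, which called 0.0399% and 0.375% of all genes, called a member. For AQ on the high-fat diet limma likewise called 0.0479% of all genes, 3 members had an unadjusted p under 0.05 (11.8% of all genes). There edgeR called 0.0479% of all genes and no member, and DESeq2 called 1.12% and 1 member, Hmox1. For AQ on chow the share was 1.11%, with 1 member at an unadjusted p under 0.05 (15.5% of all genes) and no member called by edgeR (1.17% of all genes) or DESeq2 (2.75%). For the Nurr1 transgene it was 0.599%, with 1 member at an unadjusted p under 0.05 (8.95% of all genes) and again no member called by edgeR (0.647% of all genes) or DESeq2 (1.37%). Groups did not overlap for 6 members in the diet comparison with AQ (33.2% of all genes), for 3 with AQ on the high-fat diet (16.3%), for 1 with AQ on chow (19.8%) and for 3 between the untreated high-fat groups (23.0%). The p-values measure the spread between these libraries, since the labels call them biological replicates without naming animals.

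**Figure D2:**
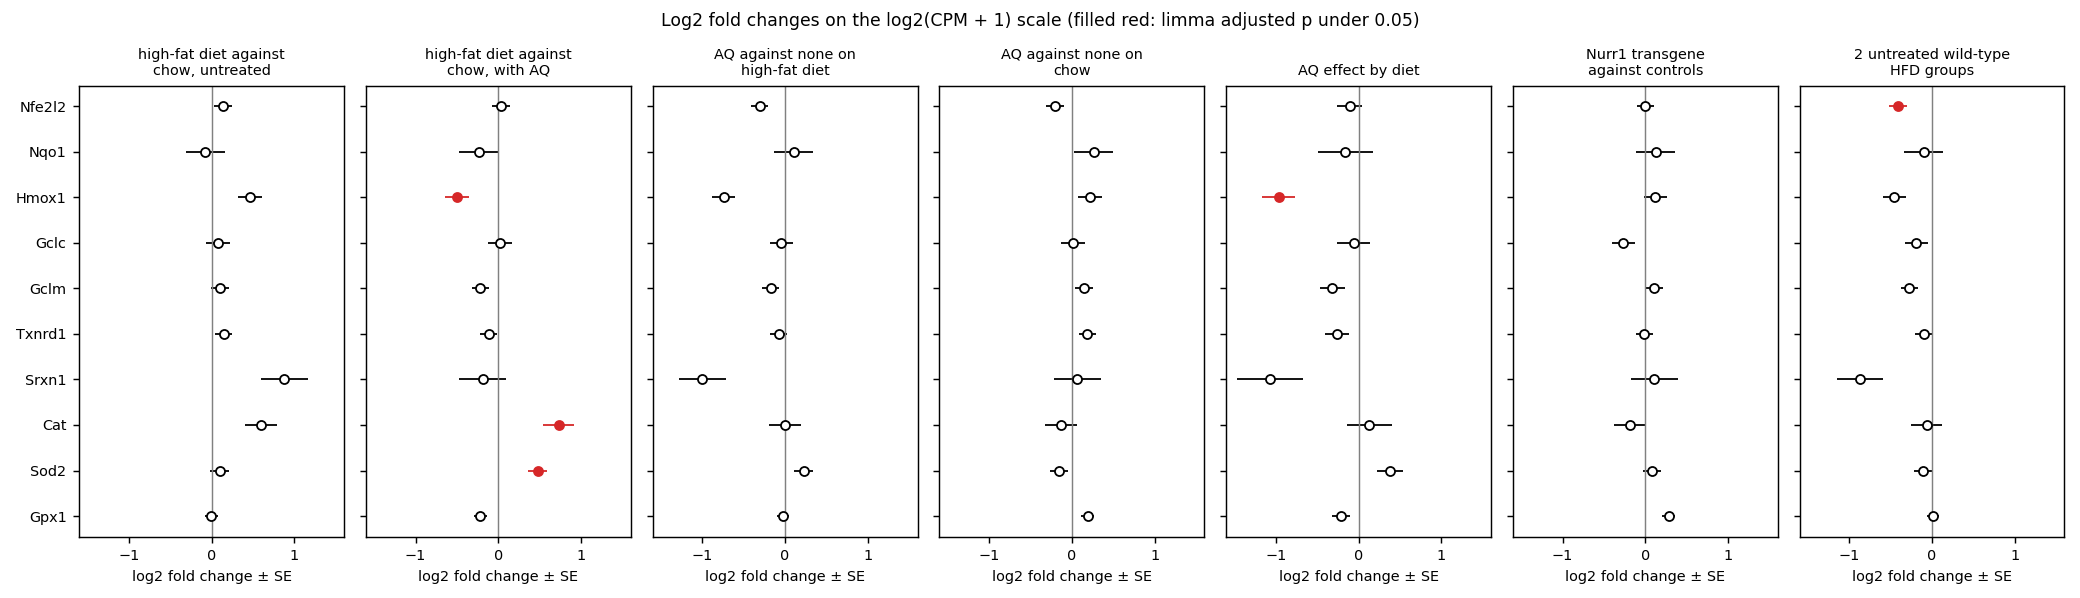
Log2 fold change ± SE of the 10 genes in 7 comparisons, on the log2(CPM + 1) scale; filled red points passed a limma adjusted p of 0.05. Filled points are Hmox1, Cat and Sod2 for diet with AQ, Hmox1 for the AQ effect by diet, and Nfe2l2 between the 2 untreated wild-type HFD groups.

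Nfe2l2 (chromosome 2, 75675513 to 75704641, minus strand, GRCm38), the gene of NRF2 itself, was lower in HFD-WT than in WT-HFD muscle. It lay at 69.2, 71.2 and 54.5 CPM in WT-HFD and at 47.9, 47.3 and 49.97 CPM in HFD-WT. The groups did not overlap, and the HFD-WT libraries lay close together. The log2 fold change was -0.41 ± 0.11 (SE), a level 0.754 times as high (limma adjusted p = 0.038, edgeR adjusted p = 0.0341). Without the second WT-HFD library, the one with the high summed immediate early and heat shock level, it was -0.34 with a limma adjusted p of 0.19. The call held in only 1 of the 6 fits that left out a library, that without the third WT-HFD library. With each library's GC trend removed the limma adjusted p was 0.102, and in a fit to only these 2 groups it was 0.112. These groups share diet and the label wild type, and what else separates them cannot be told apart. Of the 7 macrophage markers in the table only Cd163 was called in this comparison (-1.11 ± 0.20, limma adjusted p = 0.00428). The list as a whole did not fall, with 4 of the 7 above 0 and a median log2 fold change of 0.05. The part of Cd163 in the Nfe2l2 value was not tested.

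AQ moved Nfe2l2 past the threshold on neither diet. On the high-fat diet, Nfe2l2 was at 49.9, 48.6 and 57.7 CPM with AQ, which overlapped the WT-HFD values. The log2 difference was -0.31 ± 0.11 (limma adjusted p = 0.2445), and it was -0.43 with a limma adjusted p of 0.0422 without the third WT-HFD library. Chow muscle lay at 53.4, 58.9 and 63.6 CPM without AQ and at 53.9, 47.8 and 50.5 CPM with it, and these also overlapped. Transgenic muscle, at 53.8, 42.0 and 50.3 CPM, enclosed the range of its controls.

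Hmox1 (chromosome 8, 75093621 to 75100589, plus strand), which encodes the enzyme that opens haem to biliverdin, carbon monoxide and iron, differed in its AQ effect between the diets. It lay at 10.0, 14.1 and 11.7 CPM in WT-HFD and at 6.63, 6.44 and 6.93 CPM in WT-HFD-AQ. On chow it lay at 7.45, 8.001 and 9.57 CPM without AQ and at 9.09, 10.5 and 10.0 CPM with it. So on the high-fat diet the AQ libraries were all below the untreated ones, while on chow the 2 groups overlapped, with means of 9.86 ± 0.70 CPM with AQ and 8.34 ± 1.1 CPM without (SD, n = 3). The WT-HFD-AQ libraries were the 3 lowest of all 18, the next being an HFD-WT library at 6.95 CPM.

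The AQ effect on Hmox1 differed between diets by -0.97 ± 0.20 on the log2 scale (limma adjusted p = 0.0353; edgeR 0.0377, DESeq2 0.00461). Its 95% interval ran from -1.39 to -0.54. The call was lost with plain CPM in place of the rescaled values (-0.90, limma adjusted p = 0.113), with the GC trend removed (-0.90, adjusted p = 0.0674) and in 9 of 12 fits that left out a library, where the value stayed between -1.08 and -0.85. Without the second WT-HFD library it was -0.85 (limma adjusted p = 0.0702). With AQ, Hmox1 was lower on the high-fat diet than on chow by a log2 fold change of -0.50 ± 0.14 (limma adjusted p = 0.0314), and the groups did not overlap. That call too was lost with plain CPM (adjusted p = 0.0902), with the GC trend removed (0.0526) and in all 6 fits without 1 library (0.058 to 0.101).

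The effect of AQ on the high-fat diet itself was not called by the main test. The log2 fold change of Hmox1 was -0.74 ± 0.14, a level 0.597 times as high, with a limma adjusted p of 0.065, an edgeR adjusted p of 0.0774 and a DESeq2 adjusted p of 0.00253. Without the third WT-HFD library it passed (limma adjusted p = 0.0284), and without the second it was -0.63 (0.192). Without AQ, the high-fat diet went with a Hmox1 difference of 0.47 ± 0.14 from chow (limma adjusted p = 0.341), with no overlap between the groups. Of the members, 2 did not overlap in that comparison, Hmox1 and Srxn1, where 12.4% of all genes did not. HFD-WT muscle, at 10.8, 7.78 and 6.95 CPM, and transgenic muscle, at 9.61, 9.91 and 8.15 CPM, overlapped each other, and of these 6 libraries only the first HFD-WT library reached the WT-HFD range. The Hmox1 mean was 8.50 CPM in HFD-WT, against 11.9 CPM in WT-HFD and 8.34 CPM in WT-NC. HFD-WT differed from WT-HFD by a log2 fold change of -0.45 ± 0.14 (limma adjusted p = 0.0792). That difference passed in 1 of 6 fits without 1 library (limma adjusted p = 0.027).

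Ftl1, the ferritin light chain that stores the iron Hmox1 releases and the only other gene of the lists to differ in AQ effect by diet, moved in the same sense. It lay at 52.9, 52.7 and 48.5 CPM in WT-HFD and 39.4, 40.7 and 34.2 CPM in WT-HFD-AQ, against 39.1, 47.9 and 50.8 CPM in WT-NC and 53.7, 56.2 and 55.7 CPM in WT-NC-AQ. The AQ libraries thus lay below the untreated ones on the high-fat diet and above them on chow, without overlap in either case. The difference of the AQ effects was -0.69 ± 0.14 (limma adjusted p = 0.0324), which was lost with plain CPM (adjusted p = 0.09), with the GC trend removed (0.0722) and in 7 of 12 fits without 1 library. With AQ, Ftl1 was lower on the high-fat diet than on chow (log2 fold change -0.53 ± 0.10, limma adjusted p = 0.00259), a call that held in all 6 such fits. Fth1, the ferritin heavy chain, lay at 1176 to 1321 CPM in WT-HFD and 1148 to 1367 CPM in WT-HFD-AQ, which overlapped. On chow it lay at 1134.1 to 1605.6 CPM without AQ and 1449.9 to 1678.5 CPM with it, which also overlapped. The 7 haem and iron genes tested had a median AQ effect of 0.05 on the high-fat diet, with 4 above 0.

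Markers of several other cell types were read beside Hmox1 and Ftl1, among them those of macrophages, which express both genes strongly. The summed level of 7 macrophage markers (of 8 listed; Adgre1 is not in the table, and none was at 0 reads) was 127 to 148 CPM in WT-HFD and 90.0 to 103 CPM in WT-HFD-AQ, which did not overlap. On chow it was 106 to 108 CPM without AQ and 112 to 154 CPM with it. All 7 markers had an AQ effect below 0 on the high-fat diet, with a median of -0.45 against 0.00 for all genes, and all 7 had a lower AQ effect on the high-fat diet than on chow, with a median of -0.49. None of the 7 was called by limma in either comparison, and 3 had an unadjusted limma p under 0.05 in each. DESeq2 called Cd163 for AQ on the high-fat diet (adjusted p = 0.01035). Cd163, the scavenger receptor that takes up haemoglobin, was at 20.2 to 29.1 CPM in WT-HFD and 13.7 to 14.2 CPM in WT-HFD-AQ. On chow it also lay lower with AQ, at 13.5 to 14.99 CPM against 17.7 to 18.7 CPM without (log2 difference -0.35 ± 0.20, limma adjusted p = 0.412). In that comparison the Hmox1 groups overlapped, and Ftl1 lay higher with AQ. With AQ, the macrophage marker Csf1r was lower on the high-fat diet than on chow (-0.54 ± 0.16, limma adjusted p = 0.0361), as was Alas2, a haem synthesis gene of red cell precursors and the only erythroid marker in the table (-0.80 ± 0.23, 0.0322). Alas2 lay at 5.37 to 9.65 CPM in WT-NC-AQ and at 2.17 to 4.63 CPM in the other groups.

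Adipocyte and fibroblast markers showed medians further from 0 than the macrophage markers. The 7 adipocyte markers in the table (of 8 listed; Adrb3 has no row, and none was at 0 reads) summed to 350 to 409 CPM in WT-HFD and 245 to 328 CPM in WT-HFD-AQ, which did not overlap. Their median AQ effect on the high-fat diet was -1.13 (6 of 7 below 0, 5 with an unadjusted limma p under 0.05), and their median AQ effect by diet was -1.77 (7 of 7 below 0, 5 under 0.05). The 6 fibroblast markers summed to 1676 to 3202 CPM in WT-HFD and 1352 to 1839 CPM in WT-HFD-AQ, which overlapped, with medians of -0.55 (5 of 6 below 0) and -0.59 (4 of 6 below 0). No adipocyte or fibroblast marker was called by limma in either comparison. DESeq2 called Col3a1 in both (adjusted p = 0.0216 and 0.0266), and Plin1 (0.0468), Retn (0.0303) and the endothelial marker Vwf (0.0429) for AQ by diet. The 6 endothelial markers had a median of 0.09 for AQ on the high-fat diet (4 of 6 above 0). For AQ by diet their median was -0.17 (5 of 6 below 0). Limma called none of them in either comparison, but called Vwf for AQ on chow (0.45 ± 0.09, adjusted p = 0.025). The part of macrophage, adipocyte, fibroblast, endothelial or erythroid RNA in the Hmox1 and Ftl1 values was not tested. In bulk muscle, fewer cells of a type and less RNA per cell cannot be told apart, here and for every gene that follows.

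**Figure D3:**
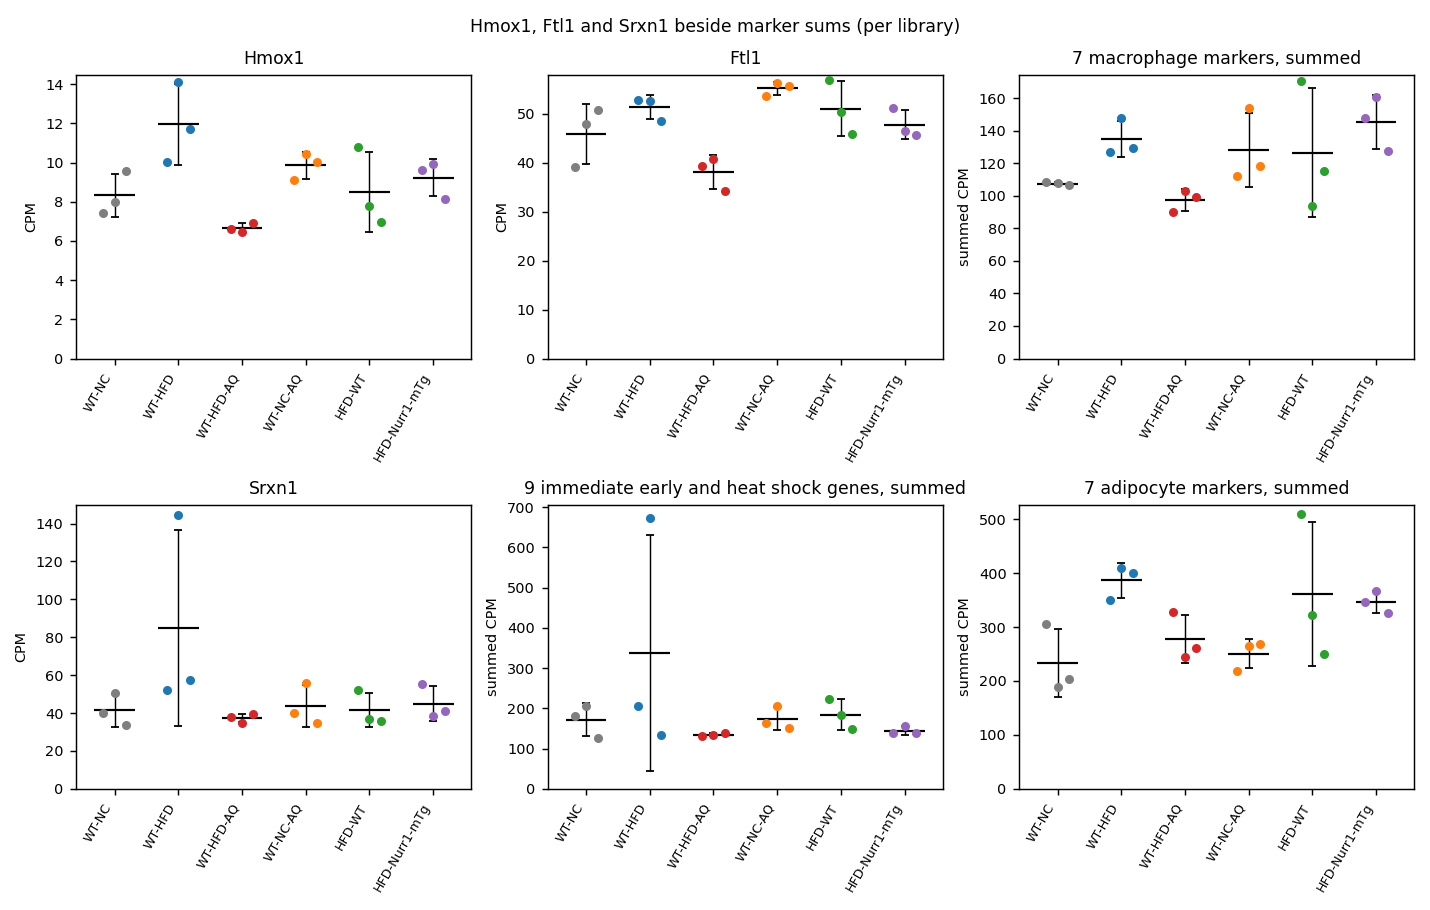
Hmox1, Ftl1 and Srxn1 in CPM, and the summed CPM of 7 macrophage markers, 9 immediate early and heat shock genes and 7 adipocyte markers, in each library (points) by group, with mean (bar) and SD of 3 libraries (whiskers). WT-HFD-AQ is low for Hmox1, Ftl1 and the macrophage sum, and the WT-HFD library with Srxn1 at 144 CPM is the one with the immediate early and heat shock sum of 674 CPM.

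Srxn1 (chromosome 2, 152105516 to 152111376, plus strand), sulfiredoxin, which restores over-oxidised peroxiredoxins, was called in no comparison by the main test, and varied most of the 10 members between libraries. It lay at 52.4, 144 and 57.3 CPM in WT-HFD, at 40.0, 50.6 and 33.5 CPM in WT-NC and at 37.9, 34.9 and 39.4 CPM in WT-HFD-AQ. The other groups ran from 34.6 to 56.1 CPM. All 3 WT-HFD libraries therefore lay above the WT-NC and WT-HFD-AQ ranges, but the second stood far above its companions. In that same library Atf3, a stress-induced transcription factor, was at 245 CPM, against 22.1 and 7.89 CPM in the other WT-HFD libraries. The part of that library's state in the Srxn1 values was not tested beyond leaving it out.

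Against chow, Srxn1 in WT-HFD showed a log2 difference of 0.88 ± 0.28 (limma adjusted p = 0.3535), and 0.42 without the second library (adjusted p = 0.806). For AQ on the high-fat diet it was -1.001 ± 0.283 (adjusted p = 0.152), and -0.54 without that library (0.41). HFD-WT differed from WT-HFD by -0.87 ± 0.28 (limma adjusted p = 0.0903, DESeq2 adjusted p = 0.0489), and by -0.41 without it (limma 0.378). Leaving that library out lowered each of these differences by more than 1.5 times. The AQ effect by diet was -1.07 ± 0.40 (limma adjusted p = 0.237), and -0.61 without it (0.327). In fits without 1 library, the Srxn1 difference of HFD-WT from WT-HFD passed the limma threshold in 2 of 6 (lowest adjusted p = 0.0478). The other Srxn1 differences given here passed in none.

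Cat and Sod2 formed the other pattern, higher on the high-fat diet in the mice given AQ. Cat (chromosome 2, 103453849 to 103485160, minus strand) encodes catalase, and Sod2 (chromosome 17, 13006846 to 13040063, plus strand) the manganese superoxide dismutase of mitochondria. With AQ, Cat was at 213, 208 and 199 CPM on the high-fat diet and 121, 148 and 108 CPM on chow, and Sod2 was at 407, 424 and 410 CPM against 276, 332 and 287 CPM. Neither gene's groups overlapped. Cat rose by 0.73 ± 0.19 on the log2 scale, to 1.66 times the chow level (limma adjusted p = 0.0215), and Sod2 by 0.47 ± 0.11, to 1.39 times (0.0124). Both calls held with edgeR and DESeq2, with plain CPM and with the GC trend removed. In fits without 1 library, the Sod2 call held in 4 of 6 and was lost without the first (adjusted p = 0.0632) or the third (0.0576) WT-NC-AQ library. The Cat call held in 1 of 6, that without the second WT-NC-AQ library, with adjusted p from 0.018 to 0.106 and log2 fold changes from 0.63 to 0.85.

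Without AQ, neither gene was called between diets. Cat was at 160.5, 225 and 246 CPM on the high-fat diet and 173, 119 and 124 CPM on chow, a log2 difference of 0.60 ± 0.19 (limma adjusted p = 0.350) with overlapping groups. Sod2 was at 344, 420 and 307 CPM against 391, 327 and 284 CPM, so its untreated groups overlapped almost completely. The change in the diet effect with AQ equals the AQ effect by diet, which was 0.38 ± 0.16 for Sod2 (limma adjusted p = 0.296) and was not called for Cat, so a diet effect that depends on AQ was not shown for either gene. HFD-WT muscle had Cat at 260, 202 and 147 CPM and transgenic muscle at 200.01, 152 and 173 CPM, which overlapped. Sod2 was at 310, 333 and 346 CPM in HFD-WT and 361, 345 and 340 CPM in transgenic muscle, which also overlapped.

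Markers of muscle fibres and of other cells were read beside Cat and Sod2. Among the 10 muscle fibre markers, Mb, the myoglobin of oxidative fibres, rose with the high-fat diet under AQ (log2 fold change 0.85 ± 0.23, limma adjusted p = 0.0224) and Des, the intermediate filament desmin, fell by 0.43 ± 0.12 (0.0304). Limma called none of the other 8. DESeq2 also called Acta1 (log2 difference -0.47 ± 0.21, limma adjusted p = 0.168, DESeq2 0.00147) and Ckm (-0.35 ± 0.19, limma 0.269, DESeq2 0.0408). Of the 10 fibre markers, 7 lay below 0 and 3 above, with a median of -0.22. Of the 6 fibroblast markers, Col3a1 fell by 0.98 ± 0.24 (limma adjusted p = 0.0165) and Lum rose by 0.47 ± 0.14 (0.0447). The Lum call was lost with edgeR (adjusted p = 0.0544) and with the GC trend removed (limma adjusted p = 0.113). Of these 6 markers, 4 lay below 0 and 2 above, with a median of -0.27. The 7 adipocyte markers in the table summed to 245 to 328 CPM in WT-HFD-AQ and 219 to 268 CPM in WT-NC-AQ, which overlapped, and limma called none. The sum is mostly Fabp4, which lay at 198 to 232 CPM against 138 to 175 CPM (limma adjusted p = 0.0657, DESeq2 0.0379). Of the 7 markers, 5 had a log2 difference below 0, and the median was -0.30. Cfd was the lowest, at 28.9 to 31.8 CPM against 48.7 to 83.3 CPM (log2 difference -1.002 ± 0.321, limma adjusted p = 0.0544, edgeR 0.0398, DESeq2 0.0478). The groups overlapped for neither Fabp4 nor Cfd. Without AQ the same sum was 350 to 409 CPM on the high-fat diet and 189 to 305 CPM on chow, which did not overlap. Whether fibre type or adipocyte content takes part in the Cat and Sod2 values was not tested.

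Gpx1 (chromosome 9, 108338903 to 108340343, plus strand), the cytosolic and mitochondrial glutathione peroxidase, was the steadiest member within groups and the one that came nearest to a call for the transgene. It lay at 54.5, 50.6 and 51.4 CPM in transgenic muscle and at 44.1, 43.8 and 40.4 CPM in its controls. The groups did not overlap, which held for 2 members in that comparison (Gpx1 and Gclc) and for 14.3% of all genes. The log2 difference of Gpx1 was 0.28 ± 0.08, a level 1.22 times as high, with a limma adjusted p of 0.129 and a DESeq2 adjusted p of 0.0826. On chow Gpx1 was at 46.0, 48.8 and 51.1 CPM with AQ and 39.0, 45.3 and 43.4 CPM without. That difference, 0.19 ± 0.08, missed the threshold (limma adjusted p = 0.242), and with the GC trend removed it was 0.10 (0.623). WT-HFD lay at 43.4, 44.1 and 39.9 CPM and WT-HFD-AQ at 42.1, 44.7 and 38.3 CPM, nearly the same range. With AQ the diet difference was -0.22 ± 0.08 (limma adjusted p = 0.0738), and -0.11 with the GC trend removed (0.349).

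Gclc and Gclm encode the catalytic and the modifier subunit of glutamate-cysteine ligase, the enzyme that sets the pace of glutathione synthesis, and neither was called in any comparison. Gclc (chromosome 9, 77754535 to 77794485, plus strand) lay at 15.1, 14.9 and 16.2 CPM in transgenic muscle and 21.9, 17.6 and 17.0 CPM in its controls, without overlap. In the other 4 groups its means were 20.7 to 21.5 CPM, with single libraries from 15.3 to 24.5 CPM. Those groups overlapped throughout. Gclm (chromosome 3, 122245557 to 122270732, plus strand) lay at 19.8, 17.8 and 19.9 CPM in WT-HFD, 17.5, 17.5 and 15.6 CPM in WT-HFD-AQ and 16.2, 14.5 and 16.4 CPM in HFD-WT. Both of the last groups lay below WT-HFD without overlap. The log2 difference between HFD-WT and WT-HFD was -0.27 ± 0.11 (limma adjusted p = 0.1535), and the AQ effect by diet was -0.32 ± 0.15 (0.348). Exons of Gclm share 296 bases with the antisense transcript gene Gm17494 and 244 bases with the pseudogene Gm6061. Neither has a row in the table, and since no source used here gives the use of strand in counting, their reads cannot be told apart from those of Gclm.

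Txnrd1 and Nqo1, much used as readouts of NRF2, gave no called change either. Txnrd1 (chromosome 10, 82833951 to 82897712, plus strand), the cytosolic thioredoxin reductase, had group means between 107 and 122 CPM. Its 3 WT-HFD-AQ libraries lay between 111 and 114 CPM and its 3 transgenic libraries between 91.7 and 129 CPM. The lowest and the highest library of the transgenic group thus spanned nearly the whole range of the series. Nqo1 (chromosome 8, 107388225 to 107403206, minus strand), a quinone reductase, had group means between 30.05 and 39.7 CPM. It varied within groups, as in WT-HFD at 25.4, 25.3 and 46.4 CPM and in HFD-WT at 35.4, 19.1 and 35.6 CPM. The tightest group, WT-NC-AQ at 39.0, 37.5 and 42.5 CPM, overlapped WT-NC at 28.5, 30.1 and 41.2 CPM. In the 7 comparisons, 50 of the 70 member values had an unadjusted limma p of 0.05 or more, and their log2 fold changes ran from -0.26 to 0.27. Of these 50, 26 changed sign under some other setting, the largest such value being 0.19 in size, so no direction is read from the fits of these 50, and where their libraries are described, only the values are meant. Their 95% intervals reached from -0.86 to 0.76, and the widest were those of Srxn1 and Nqo1, so changes of that size in those genes would not have been seen reliably.

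**Figure D4:**
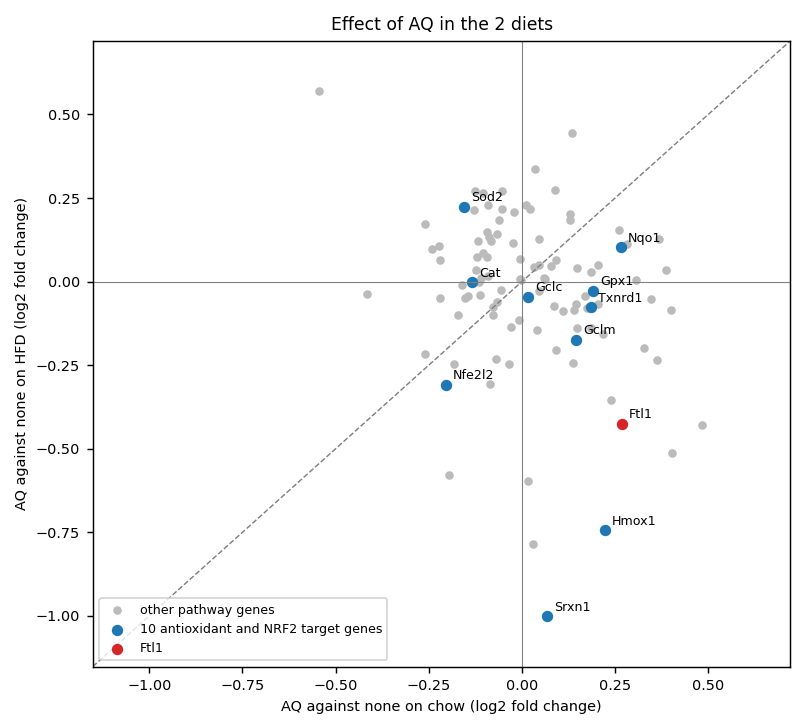
Log2 fold change with AQ on chow (horizontal) and on the high-fat diet (vertical) for the 10 genes (blue), Ftl1 (red) and the other pathway genes tested (grey); equal effects fall on the dashed line. Hmox1 and Ftl1 lie right of 0 and below 0, and the difference of their 2 effects was -0.97 and -0.69.

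Beyond the 10 genes, 9 lists of 99 pathway genes were read, of which 94 were tested (Slc7a11, Gstm3, Gstm6, Mgst2 and Ncf4 have no row in the table). For diet with AQ, 10 of the 94 were called, or 10.6%, the same share as for all genes. The other called sets were 1 gene, Ftl1, for the AQ effect by diet (1.06% of the 94) and 3 genes between HFD-WT and WT-HFD (3.19%). In the remaining 4 comparisons 0 of the 94 were called by limma. The median log2 fold change of the 94 lay between -0.04 and 0.06 in every comparison, with the medians of all genes between -0.01 and 0.01.

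The called genes of the diet comparison with AQ went in both directions within 1 enzyme family. Of 17 glutathione transferase genes tested, which join glutathione to electrophiles, Gstt2 rose by 1.30 ± 0.19 (limma adjusted p = 0.000456), from 2.26, 3.00 and 2.93 CPM on chow to 8.79, 7.91 and 7.76 CPM on the high-fat diet. Gstm1 fell by 0.55 ± 0.10 (0.00196), from 126, 106 and 127 CPM to 77.04, 81.8 and 85.4 CPM, and Gstm2 fell by 0.63 ± 0.17 (0.0232). The 3 genes lay apart between the groups, but the Gstm2 call was lost in all 6 fits without 1 library (adjusted p 0.0502 to 0.0818). Genes of the Gstm family are close in sequence, and how the authors' counting split reads between them is not stated in the labels.

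Of 17 genes of the thioredoxin and peroxiredoxin system, 3 rose with the high-fat diet under AQ and none fell. Prdx3, the mitochondrial peroxiredoxin, rose by 0.30 ± 0.07 (limma adjusted p = 0.0116), and Prdx5, another peroxiredoxin found in mitochondria, by 0.52 ± 0.09 (0.00118). Msra, which reduces oxidised methionine, rose by 0.38 ± 0.11 (0.0387). Prdx5 lay at 146, 151 and 127 CPM on the high-fat diet and 91.0, 112 and 90.8 CPM on chow, without overlap, while the Msra groups overlapped. The Prdx5 call held in all 6 fits without 1 library. The Prdx3 call held in 3 of them and was lost with the GC trend removed (adjusted p = 0.0611), and the Msra call held in 2 and was lost in a fit of only the groups compared (0.0818).

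In the same comparison 3 other lists gave 1 called gene each besides Ftl1. Idh1, the cytosolic isocitrate dehydrogenase and the only 1 of 8 NADPH supply genes called, rose by 0.54 ± 0.10 (limma adjusted p = 0.00228), from 23.7, 26.2 and 25.3 CPM to 35.6, 37.0 and 38.4 CPM. Xdh, xanthine dehydrogenase, which in its oxidase form makes superoxide, was called among 6 superoxide-producing oxidases and rose by 0.83 ± 0.16 (0.0029). Sqstm1, the p62 adaptor that competes with NRF2 for KEAP1, was called among 11 partners and regulators of NRF2 and fell by 0.50 ± 0.12 (0.0161). The Idh1 and Xdh calls held in all 6 fits without 1 library and the Sqstm1 call in 4. It was lost without the third WT-HFD-AQ library (adjusted p = 0.0849) or the first WT-NC-AQ library (0.0689).

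Between HFD-WT and WT-HFD, Xdh fell by 1.04 ± 0.16 (limma adjusted p = 0.00195), from 66.0, 105 and 67.4 CPM to 37.4, 39.2 and 35.3 CPM. Mgst1, a microsomal glutathione transferase, fell by 0.67 ± 0.15 (0.0147). Sod3, the extracellular superoxide dismutase, rose by 0.77 ± 0.17 (0.0177), from 16.6, 16.9 and 23.8 CPM to 43.6, 33.1 and 24.3 CPM. All 3 genes lay apart between the groups. The Xdh call held in all 6 fits without 1 library. Without the second WT-HFD library, Mgst1 (adjusted p = 0.0975) and Sod3 (0.0973) missed the threshold, as did both in the fit of only these groups (0.0724 and 0.124).

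In 2 of the lists no gene was called in any comparison. Among 14 glutathione synthesis and use genes, the smallest unadjusted p was that of Gpx3, the secreted glutathione peroxidase, at 202, 166 and 221 CPM in WT-NC and 117, 144 and 127 CPM in WT-HFD (log2 difference -0.59 ± 0.18, limma adjusted p = 0.332). Among 11 other detoxification genes linked to NRF2 it was that of Nqo2, a quinone reductase related to Nqo1, for diet with AQ (0.34 ± 0.11, adjusted p = 0.0609).

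For each member, the 3 genes of the table most alike in their course over the 18 libraries were sought by the root-mean-square difference of centred log2 values, leaving out unnamed gene models. For Cat they were Slc25a20, Hadha and Cpt2 (differences 0.152, 0.165 and 0.166, where the median over all genes was 0.405), which carry and oxidise fatty acids in mitochondria. For Sod2 they were Slc25a11, Immt and Gfm1 (0.0626, 0.0626 and 0.0667, against a median of 0.257), all of mitochondria. For Hmox1 they were Kif20a, Ftl1 and Homer3 (0.171, 0.184 and 0.186, against 0.32), so Ftl1, tested above from its list, was also the second most alike of the named genes. Txnrd1 was closest to Mafg, a small MAF partner of NRF2 (0.0889, against 0.216), followed by Ubxn4 and Csnk1d. For Srxn1 the nearest, Rnf115, was still 0.243 away. The nearest genes to the rest were Stag2, Pnpla8 and Rbm39 for Nfe2l2, Maz, Dpp9 and Cxxc1 for Gpx1, Spryd7, Trdn and Tmod4 for Gclc, Ggact, Tbc1d23 and Cep76 for Gclm, and Lca5l, Pou6f1 and Ccdc85c for Nqo1. A gene that varies little lies near many others by this measure, and libraries share depth and tissue makeup, so these are descriptions only.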

How the data were processed

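The authors deposited 1 table of CPM values per gene symbol and library. TopHat2 2.0.12, edgeR and the builds GRCm38 and mm10 are named in the submitters' processing notes; no source used here gives the counting tool or the use of strand. The deposited signal columns summed to 929993 to 1071538, and every value gave whole reads (tolerance 1e-06). The 10 genes and all gene lists were chosen with earlier results of these data known.

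The main test was limma 3.58.1 (R 4.3.3; lmFit, eBayes with trend, two-sided) on log2(CPM + 1), with 6 groups in 1 fit (12 residual degrees of freedom), for genes that reached 1 CPM in 3 or more libraries, with Benjamini-Hochberg adjustment over 12524 genes. This scale understates changes of low genes. Named were all 10 genes, called genes of the lists (at most 4 a list and comparison) or, where a list had none, the 1 with the smallest p, and each member's 3 most alike genes. Markers, Atf3 and Fth1 were named after their values were seen. Alternatives were pseudocounts 0.25 and 4, no filter, edgeR 4.0.16 (quasi-likelihood) and DESeq2 1.42.0 on the recovered reads, plain CPM, only the groups compared, a replicate block, leaving out each library and, added after seeing the data, removing each library's GC trend (loess, span 0.3). Gene positions are from GENCODE (GRCm38) and promoters from RefSeq. Libraries within a group differed beyond sampling noise in all 18 pairs (chi-square per degree of freedom at least 4.22). The code was tested on simulated data.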

Additional observations from a re-analysis of the deposited data

Results flagged for a closer look

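The effect of AQ differed between the diets for 2 of the genes read here. For Hmox1 the log2 effect on the high-fat diet minus that on chow was -0.97, and for Ftl1 it was -0.69, both by the limma test of the difference itself (adjusted p = 0.0353 and 0.0324). Both were lost with plain CPM and with the GC trend removed. The medians of the macrophage (-0.49), adipocyte (-1.77), fibroblast (-0.59), endothelial (-0.17) and muscle fibre (-0.10) markers lay on the same side of 0. So did Alas2, the only erythroid marker in the table (-0.85). The part of these cell types in either value was not tested.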

How the results depend on the processing

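No value of the 10 members with an unadjusted p under 0.05, and none of a called pathway gene, changed sign under any alternative. Pseudocount, filter and edgeR moved no call of a member. DESeq2 called 47 genes for diet untreated, 140 for AQ on the high-fat diet (1 member), 284 for AQ on chow, 229 for AQ by diet, 171 for the transgene, and 2 members between the 2 untreated high-fat groups. Plain CPM gave 3 genes for diet untreated, 43 for AQ on chow, and 32 with 0 members for AQ by diet. With only the groups compared, 2, 1 and 12 genes were called for diet untreated, AQ on the high-fat diet and AQ on chow, and 96 with 0 members between the untreated high-fat groups. Removing the GC trend gave 19 genes for AQ on chow, 24 with 0 members for AQ by diet, and 275 with 0 members between the untreated high-fat groups; this and plain CPM each left 2 of the 3 members called for diet with AQ. Replicate numbers did not pair the libraries (r from -0.214 to 0.306 over 45 same-numbered pairs, 8 over 0.1). With a replicate block, 12 genes were called for diet untreated and 49 for AQ on the high-fat diet, with 1 member, Hmox1 (adjusted p = 0.0471).

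Leaving out 1 library at a time gave 0 to 40 genes for diet untreated, 573 to 1130 for diet with AQ (0 to 2 members), 0 to 224 for AQ on the high-fat diet (0 to 2 members), 13 to 113 for AQ on chow, 3 to 103 for AQ by diet (0 to 1 member), 43 to 72 for the transgene and 145 to 748 between the untreated high-fat groups (0 to 2 members). The cause of these shifts was not tested, beyond the smaller number of samples in such fits. Hmox1 rested on 75 to 175 reads a library, which limits its precision.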
